A study of Mus musculus with 16 samples.

Results

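Sorted fluorescent cells of the dorsal striatum were compared with those of the motor and somatosensory cortex in PV-tdTomato mice, a reporter line in which the red protein tdTomato marks cells that use the regulatory sequences of the parvalbumin gene. The comparison uses 8 of the 16 arrays of the study, 4 from each region, chosen by their sample titles alone. The mice were C57BL/6J, heterozygous for the reporter (PV-tdTomato/+), labelled as male, and 30 days old. Each array held the RNA of 2000 cells obtained by fluorescence-activated cell sorting and pooled from 2 to 4 mice, so a replicate is a pool and not an animal. The other 8 arrays came from PVCre/+; tdTomato/+ mice of the same strain, labelled sex and age, again 4 per region. In that line Cre recombinase, made under parvalbumin control, switches the reporter on, and a cell that once made Cre stays labelled. RNA was amplified from 5 ng and hybridised to the Affymetrix Mouse Transcriptome Array, and levels are given on the log2 scale, where 1 unit is a doubling. Of 31216 transcript clusters annotated with a single gene, 30743 genes remained after taking 1 cluster per gene, and 20495 of these were tested.

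Parvalbumin interneurons are fast-spiking inhibitory neurons that fire brief action potentials at high rates and contact the cell body and proximal dendrites of their targets. In the cortex they share the tissue with other inhibitory classes, among them somatostatin cells, Vip cells, Cck basket cells and neurogliaform cells; the parvalbumin and somatostatin classes are born in the medial ganglionic eminence, and most of the Vip, Cck and neurogliaform cells in the caudal ganglionic eminence. The striatum is built mainly of projection neurons and holds few interneurons, which include parvalbumin cells, cholinergic cells, cells that express the catecholamine enzyme Th, and cells that express Npy, Sst and Nos1. Motile cilia are hair-like extensions of the ependymal cells that line the ventricles next to the striatum.

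The 8 arrays were not alike within a region, and the levels of several cell type genes followed the replicate number. Pvalb, which encodes parvalbumin itself, had levels of 11.38, 11.86, 7.29 and 8.40 in striatal replicates 1 to 4 and of 12.17, 11.13, 6.96 and 7.19 in cortical replicates 1 to 4. It was therefore high in replicates 1 and 2 and low in replicates 3 and 4 of both regions. Gad1, the main GABA-synthesising enzyme, was at 14.00 to 14.41 in the first pair of numbers and dropped to 12.09 to 12.77 in replicates 3 and 4. The mean of 14 oligodendrocyte markers ran the other way, from 11.86 to 12.39 in replicates 1 and 2 and from 13.83 to 14.44 in replicates 3 and 4. That of 11 oligodendrocyte precursor markers rose from 8.57 to 9.33 up to 11.25 to 11.95. In replicate 3 of both regions Xist, the RNA of the inactive X chromosome, was at 15.93 and 16.01 against 5.71 to 6.04 in the other arrays. The Y-linked genes Eif2s3y, Kdm5d and Uty were at 5.75 to 6.37 there against 9.20 to 10.25 elsewhere. Both go against the label of male mice. None of these differences separated striatum from cortex, but they widen the spread within each region. Results that rest on them are given with and without the PV-tdTomato arrays of replicates 3 and 4. In RNA from pools, fewer cells of a type and less RNA per cell cannot be told apart.

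**Figure D1:**
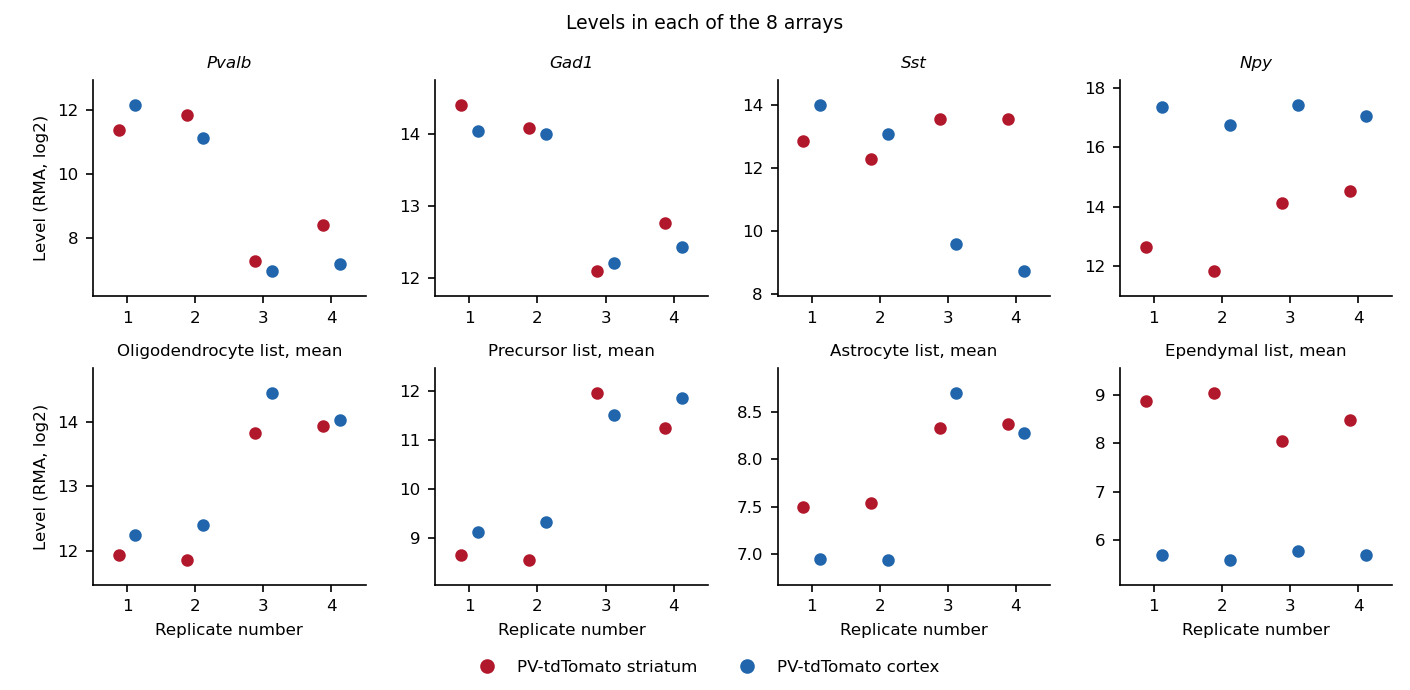
Levels (RMA, log2) of 4 interneuron genes and the mean levels of 4 marker lists in each of the 8 PV-tdTomato arrays, by replicate number, with striatum in red and cortex in blue. Pvalb and Gad1 are high in replicates 1 and 2 of both regions and the oligodendrocyte lists in replicates 3 and 4, while the ependymal list lies between 8.04 and 9.03 in striatum and between 5.6 and 5.78 in cortex.

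Across all genes, 476 of 20495 passed an adjusted p of 0.05 (limma on all 16 arrays, Benjamini-Hochberg), which is 2.32% of the genes tested. Of these, 355 were higher in striatum (1.73%) and 121 were lower (0.59%), and 1632 genes had an unadjusted p under 0.05. The difference was 4-fold or more for 93 of the higher and 44 of the lower genes. In 469 of the 476 genes the 4 striatal arrays did not overlap the 4 cortical ones; over all genes tested, 5.98% showed no overlap. Among the genes called higher, 218 had a cortical mean under 6.1, the highest mean of the array's background probe sets. Their fold therefore depends on a cortical level that may be background. Of the genes called lower, 35 had a striatal mean under 6.1. Means of the 23 background sets ran from 2.95 to 6.1, and no test of detection was run. Below, background stands for levels under 6.1. With the replicate number as a block, 2.86% of genes passed, and 338 genes were called in the same direction with and without the block. Without replicates 3 and 4, 3.73% passed, and 395 of the 476 were called again in the same direction. The count of lower genes depended most on single arrays: it was 72 without striatal replicate 1, 72 without cortical replicate 1 and 71 without cortical replicate 2, in place of 121.

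The genes that rose most in striatum were markers of striatal interneurons and genes of motile cilia. Crabp1, a retinoic acid binding protein, had levels of 15.09, 15.42, 11.66 and 12.91 in the striatal arrays and of 7.97, 8.61, 6.93 and 7.23 in the cortical ones. Every striatal array lay above every cortical array, and the difference was 6.09 ± 0.75 on the log2 scale (SE, n = 4 and 4, 67.9-fold, adjusted p = 0.00019). This SE, like those below, uses the spread of all 4 groups of the 16-array fit and not that of the PV-tdTomato pools alone. The groups can differ in spread: for Vip the SDs were 0.68 and 2.63 in PV-tdTomato striatum and cortex. In PVCre;tdTomato they were 0.47 and 0.32. Gpr83, a peptide receptor, was at 15.60, 15.38, 12.49 and 13.23 in striatum and at 10.59, 9.39, 6.18 and 6.24 in cortex, where the level again followed the replicate number. Its difference of 6.08 ± 1.22 (adjusted p = 0.012; 0.0013 with the block) missed the threshold without replicates 3 and 4 (adjusted p = 0.064) and without striatal replicate 1 (adjusted p = 0.054), at about the same size in each case.

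Th, the enzyme that makes the dopamine precursor, was at 14.10, 14.14, 11.09 and 11.06 in striatum and at 9.02, 8.24, 6.76 and 6.46 in cortex. Striatum was higher by 4.98 ± 0.70 (31.5-fold; adjusted p = 0.00068), and each of the 4 pairs showed that direction. Trh, the thyrotropin-releasing hormone precursor, was at 11.85, 12.15, 9.0 and 9.33 in striatum and at 4.91 to 5.38 in cortex, within the background range, and rose by 5.38 ± 0.58 (adjusted p = 6.1e-05). Il1rapl2, a synaptic adhesion receptor, was at 12.22, 12.37, 8.84 and 9.76 in striatum against 5.43 to 6.77 in cortex (4.75 ± 0.73, adjusted p = 0.0013). Lhx8, a transcription factor of the medial ganglionic eminence that is kept in cholinergic neurons, was at 11.56, 11.30, 9.10 and 8.89 in striatum against 6.04 to 6.28 in cortex, a rise of 4.05 ± 0.48 (adjusted p = 0.00016). For all 4 genes the regions did not overlap, and the striatal level was higher in replicates 1 and 2 than in replicates 3 and 4. The cortical level of Th followed the replicate number too, while those of Trh and Lhx8 were flat.

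Of the 21 tested members of the striatal interneuron list, 11 rose and none fell, where 1.73% of all genes rose. The median difference was 2.16 against 0.02 over all genes. The list was drawn up with earlier results of these data known, so its count is a description. The other members that rose were Igfbp4, an insulin-like growth factor binding protein (3.39 ± 0.57, adjusted p = 0.003), Adamts5, a matrix protease (2.95 ± 0.52), Opn3, an opsin (2.83 ± 0.54), Gfra2, the neurturin receptor subunit (2.16 ± 0.38), and Mia, a small secreted protein (3.78 ± 0.57) that is also in the ependymal list used below. With the block Adamts5 (adjusted p = 0.055), Opn3 (adjusted p = 0.081) and Gfra2 missed the threshold. Without replicates 3 and 4, 11 members rose and the list's median was 3.08. The cholinergic list was represented by 6 tested genes: Lhx8 and the transporter Slc10a4 (0.56 ± 0.14, adjusted p = 0.043) rose, while Slc5a7, the choline transporter that defines these neurons, spanned 6.73 to 7.12 in striatum, inside the cortical span of 6.39 to 7.24. Slc10a4 kept its call in 1 of the 8 fits that each left out 1 array, with adjusted p values of up to 0.12. It missed the threshold with the block (adjusted p = 0.11) and without replicates 3 and 4 (adjusted p = 0.052). Chat and Slc18a3 were under the level filter and were not tested.

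**Figure D2:**
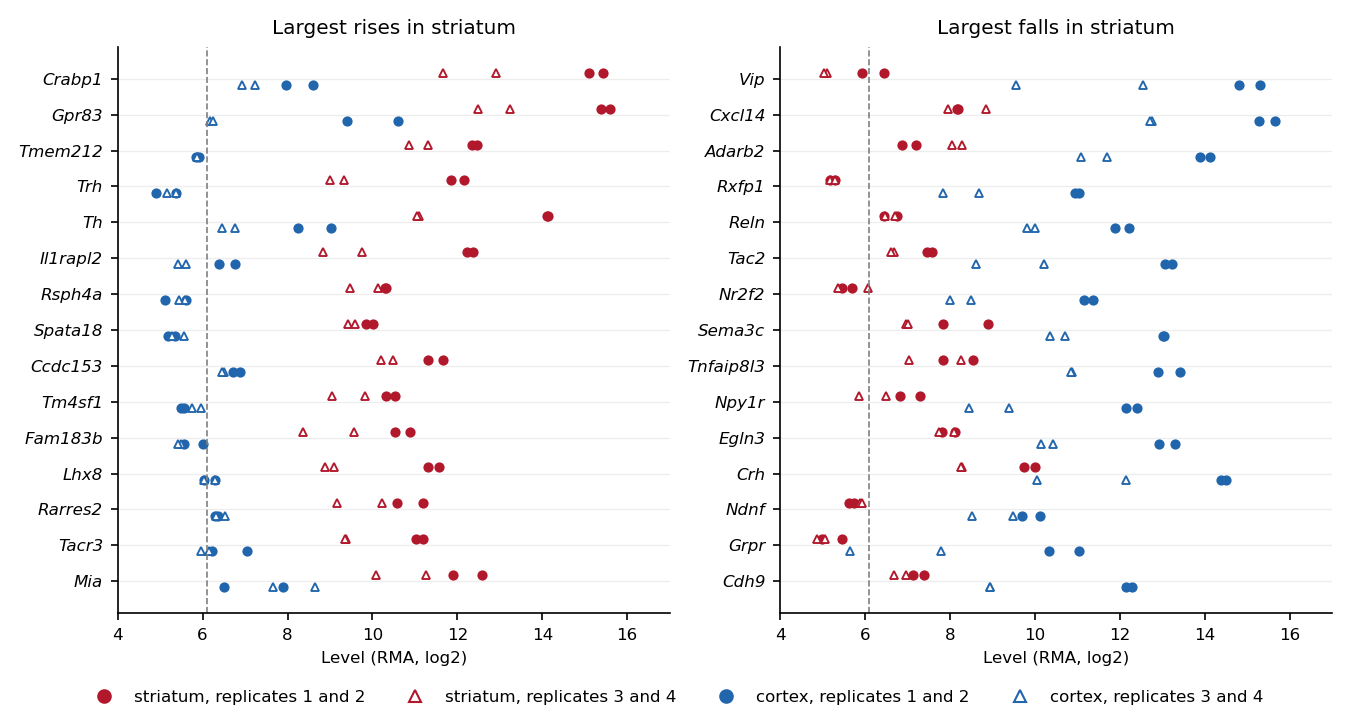
Levels (RMA, log2) of the 15 largest rises and the 15 largest falls in striatum among genes that passed the test, in each of the 8 PV-tdTomato arrays; circles are replicates 1 and 2, triangles replicates 3 and 4, red is striatum, blue is cortex, and the dashed line is the highest background mean of 6.1. The regions do not overlap for any of the 30 genes.

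The largest group of genes that moved together belonged to the motile cilium. Of 75 tested genes of the motile cilia list, 64 rose in striatum (85.3%, against 1.73% of all genes) and none fell; the median difference was 1.37. All 75 had a positive difference, in all 4 pairs, and in 70 of them the regions did not overlap. Tmem212, a membrane protein of ciliated cells, was at 12.35, 12.47, 10.86 and 11.30 in striatum and at 5.91, 5.84, 5.89 and 5.86 in cortex. Its cortical values spanned less than 0.1 and lay within background, and the striatal excess was 5.87 ± 0.38 (58.4-fold; adjusted p = 1.2e-06). Rsph4a, a radial spoke head protein, was at 10.29, 10.31, 9.47 and 10.14 in striatum against 5.12 to 5.60 in cortex (4.61 ± 0.30, adjusted p = 1.2e-06). Spata18 (4.37 ± 0.25), Ccdc153 (4.27 ± 0.38) and Fam183b (4.22 ± 0.45) followed, and for each the lowest striatal array was at least 2 units above the highest cortical one. In all 5 genes the cortical arrays were close together, and the striatal arrays of replicates 3 and 4 were somewhat below those of replicates 1 and 2.

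The rise covered the parts of the axoneme, the microtubule core of the cilium. Of 10 axonemal dynein heavy chains, which are the motors, 8 rose by 0.62 to 2.52, and Dnah6 was at 7.55, 7.75, 7.44 and 7.45 in striatum against 5.08 to 5.14 in cortex (2.44 ± 0.17, adjusted p = 1.7e-06). Of 12 cilia and flagella associated proteins, 10 rose by 1.01 to 2.97, among them Cfap65 (2.18 ± 0.16). The central pair protein Hydin rose by 1.83 ± 0.14, with striatal levels of 6.89 to 7.14 against 5.13 to 5.22. The radial spoke gene Rsph1 rose by 3.41 ± 0.33, and Enkur by 2.63 ± 0.24. The 11 members that missed the threshold (Rsph9, Cfap69, Cfap126, Ccdc39, Ccdc114, Dnah7a, Dnah10, Dnaic2, Dnaaf1, Tekt2 and Rfx3) had differences of 0.2 to 0.99. In 56 of the 64 genes that rose the cortical mean was under 6.1, and only 19 of the 64 differed 4-fold or more, so for most members a modest striatal level was set against background. With the block 61 members rose, and without replicates 3 and 4 59 rose. With the lower 50% of genes left out in place of the standard filter, 37 of the members were called, fewer of them being tested under that filter.

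**Figure D3:**
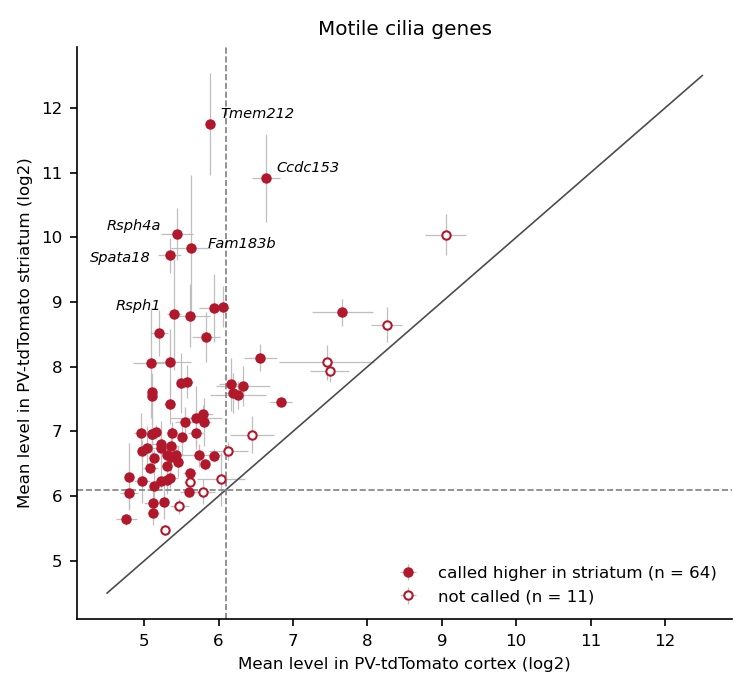
Mean level in PV-tdTomato cortex (x axis, log2) against PV-tdTomato striatum (y axis, log2) for the 75 tested motile cilia genes, with bars for the SD over 4 arrays, a line of equal levels and dashed lines at the highest background mean of 6.1. All 75 genes lie above the line of equal levels, and 61 have a cortical mean under 6.1.

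All 13 tested markers of motile ciliated ependymal cells rose too, also with the block and without replicates 3 and 4. With the lower 50% of genes left out 10 were called, with only the 8 PV-tdTomato arrays 12, and with a minimum difference of 1 unit 8. This list shares genes with the cilia list and is no separate evidence. Its mean was 8.87, 9.03, 8.04 and 8.47 in striatal replicates 1 to 4 and 5.70, 5.60, 5.78 and 5.70 in the cortical ones. The part of ependymal cells in the rise of the cilia genes was not tested. The choroid plexus list, of which 4 genes were tested, had means of 5.75 to 6.07 in all 8 arrays, within background, and no member was called (none at an unadjusted p under 0.05, limma). Other genes among the 15 largest rises were Tm4sf1, a membrane protein (4.24 ± 0.35, adjusted p = 6.5e-06), and Rarres2, the secreted protein chemerin (3.91 ± 0.40, adjusted p = 4.6e-05). Both had cortical levels of 5.49 to 6.53 and striatal levels of 9.04 to 11.18.

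Promoters of the cilia genes that rose were searched for the letters GTTGCCA on both strands (TGGCAAC on the other). The letters are a half-site of the X-box to which Rfx factors bind in ciliary genes, and no second half-site was required. The search covered the 300 bases from 250 before to 50 after each RefSeq start. RefSeq promoters were matched for 55 of the 64 genes, and 12 of these (21.8%) held the motif, against 1358 of 27025 genes with a promoter (5.02%) and 637 of 12246 tested genes with one (5.2%). Over all tested members of the cilia list, called or not, it was 13 of 65 (20%). The members that rose make up most of that list, so these shares had to be close. They cannot show whether the motif is particular to the members that rose. A match is a description of the letters and not a measured site. Promoters of a single chromosome were left out before sequences were chosen, so a larger rise with a match may not be shown. The 3 members with the largest rises among the other matches are printed 5′ to 3′ on the gene's strand in build GRCm38.p6. The motif is in capitals to show where it lies.
Pifo, chr3:106001448-106001747, minus strand, motif at position -13 from the start: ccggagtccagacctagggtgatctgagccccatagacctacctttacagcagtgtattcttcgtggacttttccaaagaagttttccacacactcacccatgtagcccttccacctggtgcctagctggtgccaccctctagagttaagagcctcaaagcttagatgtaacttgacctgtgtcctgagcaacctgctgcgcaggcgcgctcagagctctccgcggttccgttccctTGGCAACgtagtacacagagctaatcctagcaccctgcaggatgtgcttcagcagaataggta
Sntn, chr14:13670626-13670925, plus strand, motif at position -66 from the start: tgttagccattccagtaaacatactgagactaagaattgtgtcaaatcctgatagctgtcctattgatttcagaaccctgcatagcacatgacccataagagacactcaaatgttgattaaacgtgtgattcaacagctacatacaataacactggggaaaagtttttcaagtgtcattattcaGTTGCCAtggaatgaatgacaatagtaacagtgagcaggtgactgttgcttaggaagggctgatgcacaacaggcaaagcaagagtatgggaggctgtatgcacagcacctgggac
Cfap44, chr16:44394549-44394848, plus strand, 2 motifs, the first at position -130 from the start: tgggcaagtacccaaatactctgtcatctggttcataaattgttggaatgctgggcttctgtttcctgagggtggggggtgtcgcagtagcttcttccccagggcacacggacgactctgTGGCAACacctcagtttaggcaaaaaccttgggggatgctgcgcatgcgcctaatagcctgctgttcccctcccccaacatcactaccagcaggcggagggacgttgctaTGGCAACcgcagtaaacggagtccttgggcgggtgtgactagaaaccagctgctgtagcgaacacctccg
Pifo, a regulator of cilium disassembly, rose by 2.97 in striatum, Sntn, a protein of the ciliary tip, by 2.73, and Cfap44, an axonemal protein, by 2.09.

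The 4 genes of the caudal lists that fell most were Vip, Cxcl14, Adarb2 and Reln. Vip, the vasoactive intestinal peptide, was at 6.44, 5.94, 5.11 and 5.03 in striatum and at 14.82, 15.31, 9.55 and 12.54 in cortex. The striatal arrays were at or near background and the cortical ones high in all 4 pools; the difference was -7.43 ± 0.90 on the log2 scale (172-fold; adjusted p = 0.00017). Cxcl14, a chemokine of caudally derived interneurons, was at 8.18, 8.16, 8.84 and 7.96 in striatum and at 15.66, 15.29, 12.77 and 12.71 in cortex, a difference of -5.82 ± 0.56 (adjusted p = 2.7e-05). Adarb2, an RNA-binding protein that marks the same lineage, was at 6.87, 7.21, 8.29 and 8.05 against 13.88, 14.13, 11.09 and 11.70 (-5.10 ± 0.55, adjusted p = 6.3e-05). Reln, the secreted protein reelin, was at 6.46 to 6.76 in striatum against 12.22, 11.88, 9.82 and 10.01 in cortex (-4.38 ± 0.45, adjusted p = 4.3e-05). Cortical levels of these genes were higher in replicates 1 and 2 than in replicates 3 and 4, and the striatal levels of Adarb2 ran the other way.

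Of 18 tested genes of the neurogliaform and caudal list, 12 fell and none rose (median -2.20), where 0.59% of all genes fell. Ndnf, which marks neurogliaform cells of the outer cortical layer, was at 5.62, 5.75, 5.89 and 5.92 in striatum and at 10.12, 9.71, 8.52 and 9.48 in cortex. It was within background in all striatal arrays, and its difference of -3.66 ± 0.27 had the smallest adjusted p of the list (2.8e-06). Pde11a, a phosphodiesterase, was at 5.63 to 5.85 against 9.99, 9.54, 8.59 and 8.27 (-3.34 ± 0.27, adjusted p = 6.6e-06), and Lamp5, a vesicle membrane protein of neurogliaform cells, at 6.62 to 7.45 against 8.74 to 9.68 (-2.15 ± 0.24, adjusted p = 8.9e-05). Nr2f2, the transcription factor COUP-TFII of the caudal eminence, was at 5.36 to 6.08 against 11.17, 11.38, 8.0 and 8.49 (-4.11 ± 0.62, adjusted p = 0.0013). Egln3, an oxygen-sensing hydroxylase (-3.76 ± 0.54), the complexin Cplx3 (-1.37 ± 0.20), the vesicle protein Sv2c (-1.32 ± 0.25), the transcription factor Npas1 (-2.25 ± 0.51) and the serotonin-gated channel Htr3a (-3.44 ± 0.79) completed the 12. Npas1 (adjusted p = 0.14 with the block) and Htr3a each also missed the threshold when single arrays were left out, with adjusted p values of up to 0.11 and 0.12. Without replicates 3 and 4, 11 members fell, and Cplx3 (adjusted p = 0.078) and Sv2c (adjusted p = 0.056) were among those that did not.

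Of 14 tested genes of the Vip, Cck and calretinin list, 7 fell and none rose (median -1.97), where 0.59% of all genes fell. Tac2, the neurokinin B precursor, was at 7.57, 7.46, 6.68 and 6.62 in striatum against 13.06, 13.23, 8.62 and 10.21 in cortex (-4.20 ± 0.75, adjusted p = 0.005). Crh, the corticotropin-releasing hormone precursor, was at 10.00, 9.74, 8.28 and 8.27 against 14.39, 14.51, 10.06 and 12.15 (-3.71 ± 0.76, adjusted p = 0.014), and missed the threshold without cortical replicate 1, cortical replicate 2 or striatal replicate 4 (adjusted p of up to 0.054). The cholecystokinin gene Cck was at 5.76 to 6.49 against 9.03, 8.79, 7.35 and 7.18 (-2.06 ± 0.35, adjusted p = 0.0032). The lists share Cxcl14, Adarb2 and Htr3a. Together they held 29 tested genes, of which 16 fell, 18 with the block and 18 without replicates 3 and 4. That last fit took most of its spread from the PVCre;tdTomato arrays, so it says little about the spread of the PV-tdTomato pools. Adarb2 had SDs of 0.12 and 0.13 in PVCre;tdTomato striatum and cortex, against 0.67 and 1.53 in PV-tdTomato. With only the 8 PV-tdTomato arrays, 45 of all genes tested were called lower in place of 121. In 6 of the 16 the striatal mean was under 6.1.

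Further large falls concerned receptors and secreted factors that neither of those lists holds. Rxfp1, the relaxin receptor, was at 5.17 to 5.30 in striatum against 10.95, 11.05, 7.83 and 8.68 in cortex (-4.39 ± 0.53, adjusted p = 0.00018). Npy1r, the Y1 receptor of neuropeptide Y, was at 5.86 to 7.29 against 12.14, 12.40, 8.45 and 9.39 (-3.98 ± 0.70, adjusted p = 0.0043). Sema3c, a secreted guidance factor, was at 7.84, 8.89, 6.97 and 7.01 against 13.01, 13.04, 10.35 and 10.72 (-4.10 ± 0.61, adjusted p = 0.0011), and Tnfaip8l3, a lipid transfer protein, fell by the same amount (-4.10 ± 0.50). Cdh9, an adhesion molecule, was at 6.68 to 7.38 against 12.14, 12.28, 8.95 and 8.95 (-3.54 ± 0.73, adjusted p = 0.015). Grpr, the receptor of gastrin-releasing peptide, was at 4.88 to 5.46 in striatum against 10.33, 11.04, 5.64 and 7.78 in cortex, so that only cortical replicates 1 and 2 were far above background. Its difference of -3.60 ± 0.81 (adjusted p = 0.027) missed the threshold with the block (adjusted p = 0.09) and in 6 of the 8 fits that left out 1 array (up to 0.1). Cdh9 missed it without cortical replicate 1 or 2 (up to 0.057).

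**Figure D4:**
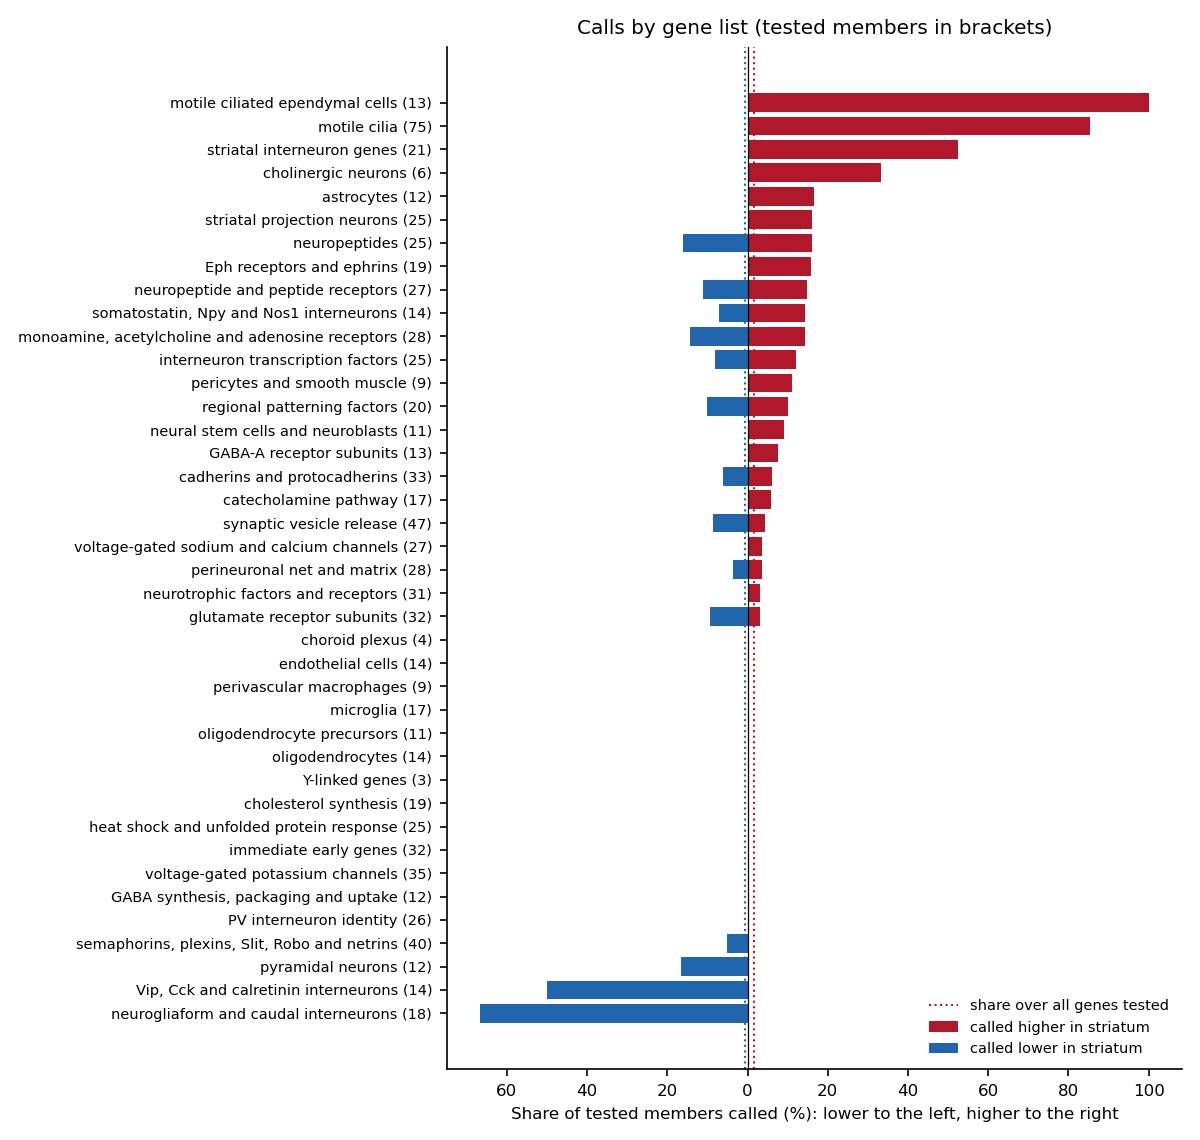
Share of the tested members of each of the 40 gene lists called higher (red, to the right) or lower (blue, to the left) in PV-tdTomato striatum than in cortex, in percent, with the number of tested members in brackets; dotted lines give the shares over all genes tested, 1.73% higher and 0.59% lower. The cilia and ependymal lists lie on the one side, with 64 of 75 and 13 of 13 members higher, and the neurogliaform and Vip lists on the other.

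The same 2 regions were compared in PVCre;tdTomato mice, where 3.89% of genes passed, and an interaction term in limma tested whether the region effect depended on the line. That difference passed for 40 genes, 0.195% of those tested, and 28 of the 40 were also called in PV-tdTomato. The cilia genes went the same way in both lines: 62 of the 64 that rose in PV-tdTomato also rose in PVCre;tdTomato, and the line difference was called for none of the 75 members (24 at an unadjusted p under 0.05, limma). Tmem212 rose by 8.62 in PVCre;tdTomato, 2.75 ± 0.54 more than in PV-tdTomato (adjusted p = 0.069). Crabp1 (4.42), Gpr83 (6.00) and Il1rapl2 (4.69) rose in PVCre;tdTomato as well, and 7 of the 11 striatal interneuron genes that rose in PV-tdTomato did so there. Over all genes called in PV-tdTomato, 272 of 476 were called in the same direction in PVCre;tdTomato, a share close to that of this list. A call in both lines does not show that the sizes are equal.

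The falls of the caudal and Vip genes were not seen in the other line. Of the 16 genes of the joined lists that fell in PV-tdTomato, none was called in PVCre;tdTomato, where their differences ran from -0.89 to 1.07, and for 8 of the 16 the line difference itself was called. Vip was at 4.77 to 5.84 in PVCre;tdTomato striatum and at 5.40 to 6.12 in PVCre;tdTomato cortex, at or near background in both. The cortical level of Vip thus differed between the lines, while both striatal groups were low. Cxcl14 was at 6.14 to 7.03 in PVCre;tdTomato cortex (line difference 5.79 ± 0.79, adjusted p = 0.0076), Ndnf at 5.72 to 6.35 (3.56 ± 0.38, adjusted p = 0.0018), Reln at 5.56 to 6.65 (4.20 ± 0.63, adjusted p = 0.016), Adarb2 at 5.59 to 5.90 (4.96 ± 0.78, adjusted p = 0.016) and Pde11a at 5.14 to 5.34 (3.25 ± 0.39, adjusted p = 0.0028). These 5 line differences kept their call with each of the 8 PV-tdTomato arrays left out. Those of Vip (6.80 ± 1.27, adjusted p = 0.049), Nr2f2 (5.18 ± 0.88, adjusted p = 0.029), Sema3c (4.86, adjusted p = 0.042), Rxfp1 (4.09, adjusted p = 0.049), Tnfaip8l3 (3.92, adjusted p = 0.043) and Lamp5 (2.06, adjusted p = 0.023) did not, with adjusted p values of up to 0.13. Lines may also differ in batch, which the labels do not give, so line and batch cannot be told apart.

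In the other direction, some genes rose more in striatum in PV-tdTomato than in PVCre;tdTomato, by the test of the difference. Trh was at 5.10 to 6.37 in PVCre;tdTomato striatum, near background, and its line difference was -5.01 ± 0.82 (adjusted p = 0.022; up to 0.062 without cortical replicate 1 or 2). Tacr3, the neurokinin B receptor, was at 11.18, 11.03, 9.38 and 9.36 in PV-tdTomato striatum against 5.97 to 7.05 in cortex (3.88 ± 0.38, adjusted p = 3.3e-05). In PVCre;tdTomato it was at 4.98 to 5.50 in striatum and 4.99 to 5.54 in cortex, and the line difference was -4.05 ± 0.54 (adjusted p = 0.0064). Mc3r, a melanocortin receptor, rose by 3.18 ± 0.39 in PV-tdTomato and not in PVCre;tdTomato (-0.15; line difference -3.33, adjusted p = 0.026, up to 0.07 without cortical replicate 1 or 2). Crym, a thyroid hormone binding protein, was at 9.01, 8.93, 9.72 and 9.52 against 6.46 to 6.79 (2.71 ± 0.19, adjusted p = 2e-06) and rose less in PVCre;tdTomato, by 0.78 (line difference -1.93 ± 0.27, adjusted p = 0.0091). For Th (-3.85 ± 0.99, adjusted p = 0.21) and Lhx8 (-2.92 ± 0.68, adjusted p = 0.16) the line difference was not called, although their PVCre;tdTomato differences of 1.13 each were not called either.

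For some genes the line difference was called without a called difference in PV-tdTomato. Necab1, a calcium-binding protein of interneurons, differed by -0.36 ± 0.75 between the regions in PV-tdTomato, where both were at 11.66 to 14.75, and by 5.54 in PVCre;tdTomato, where the cortex was at 7.10 to 8.90 (line difference 5.91 ± 1.07, adjusted p = 0.043). Cemip2, a hyaluronidase (line difference -2.33, adjusted p = 0.031), the kainate receptor subunit Grik3 (-1.63, adjusted p = 0.026) and the growth factor receptor Fgfr1 (1.39 ± 0.18, adjusted p = 0.0064) had no called difference in PV-tdTomato (adjusted p = 0.83, 0.059 and 0.23). Grik3 was higher in PV-tdTomato striatum in 4 of 4 pairs without overlap (0.76; adjusted p = 0.027 with the block) and differed by -0.87 in PVCre;tdTomato. Of these, Fgfr1 alone kept the line call with each PV-tdTomato array left out; the others reached adjusted p values of up to 0.12.

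**Figure D5:**
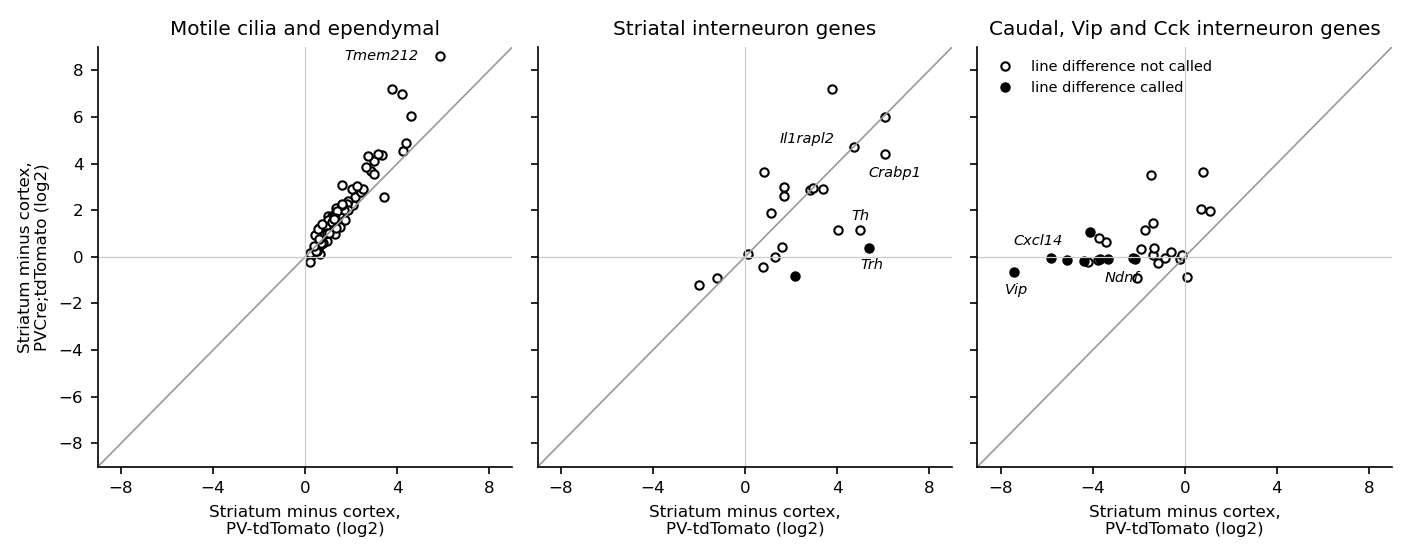
Striatum minus cortex (log2) in PV-tdTomato (x axis) against the same in PVCre;tdTomato (y axis) for the tested members of 5 gene lists in 3 panels; the diagonal marks equal differences and filled points have a called line difference. Cilia genes are higher in striatum in both lines, several of them above the diagonal, and the caudal, Vip and Cck interneuron genes that fell in PV-tdTomato lie near 0 on the y axis.

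The genes that define parvalbumin and GABAergic cells gave no call in the fit of all arrays, where 2.32% of all genes were called. At that share a list of 12 or 26 genes can hold no call by chance. The absence of calls therefore does not show that the regions are alike in these genes. Of 26 tested genes of the parvalbumin identity list, none was called (4 at an unadjusted p under 0.05, limma), with a median difference of 0.18; Pvalb differed by 0.37 ± 1.43, Gad1 by 0.17 ± 1.08, Gad2 by -0.25 ± 0.82 and Slc32a1, the vesicular GABA transporter, by 0.34 ± 0.94. These standard errors are those of pools that differ by 4 units or more in Pvalb, so a difference of the size of its SE could not have been called. With the block 4 members rose: Lhx6, the transcription factor of medial eminence interneurons, at 9.55, 9.61, 7.80 and 8.16 in striatum and 7.94, 7.40, 6.57 and 6.71 in cortex (1.63; adjusted p = 0.0087 with the block, 0.13 without), Kcnab1, a potassium channel subunit (2.22; 0.0023 with the block), Cntnap4, a synaptic adhesion protein (1.89; 0.014), and Ppargc1a, a regulator of mitochondrial genes (0.97; 0.014). In each of these the striatal pool was above the cortical pool of the same number in 4 of 4 pairs, while the regions overlapped. None of these 4 was called without replicates 3 and 4. Of 12 genes of GABA synthesis, packaging and uptake, none was called with or without the block (2 at an unadjusted p under 0.05).

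The next list holds genes of interneurons that express Sst, Npy or Nos1, which need not be a single class. Npy, neuropeptide Y, was at 12.65, 11.82, 14.13 and 14.52 in striatum and at 17.37, 16.76, 17.43 and 17.06 in cortex. Every cortical array was above every striatal one, but the difference of -3.88 ± 1.30 was not called in the fit of all 16 arrays (adjusted p = 0.24) and was called with the block (adjusted p = 0.0087). Sst, somatostatin, was at 12.86, 12.27, 13.53 and 13.56 in striatum and at 13.99, 13.07, 9.57 and 8.72 in cortex. Cortex was the higher region in replicates 1 and 2 and striatum in replicates 3 and 4, and the mean difference of 1.71 ± 1.11 (adjusted p = 0.88) turned to -0.97 without replicates 3 and 4. For the list members that follow, 1.73% of all genes rose and 0.59% fell. Of the 14 tested members of this list, Tacr1, the substance P receptor, rose (10.12, 9.66, 9.62 and 8.89 against 7.69, 7.39, 5.42 and 5.41; 3.10 ± 0.54, adjusted p = 0.0038), as did Pdyn, the dynorphin precursor (9.01, 9.04, 7.52 and 7.61 against 5.96 to 6.49; 2.10 ± 0.30, adjusted p = 0.00068), and Reln fell.

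The block called further genes that the unpaired fit did not. For most of them the level differed between replicates 1 and 2 on one side and 3 and 4 on the other. The largest rises were those of the matrix protein gene Crtac1 (2.43; adjusted p = 0.043 with the block, 0.078 without), Tgfb3, a growth factor (2.36; 0.0013 and 0.23), Trpc6, a cation channel (2.26; 0.0047 and 0.07), Pygm, the muscle-type glycogen phosphorylase (2.10; 0.032 and 0.26), Pde1b, a phosphodiesterase of striatal neurons (2.10; 0.028 and 0.15), Ctxn2 (2.07; 0.02 and 0.11) and Nrcam, an adhesion molecule (2.01; 0.02 and 0.18). The largest falls after Npy were those of Igf1, insulin-like growth factor 1, at 7.98, 8.30, 6.26 and 6.37 against 11.17, 11.41, 8.11 and 8.56 (-2.59; 0.0065 and 0.063), the transcription factor Mef2c (-2.43; 0.0043 and 0.13), the protease inhibitor Serpini1 (-2.10; 0.0023 and 0.23), Nrip3 (-1.81; 0.026 and 0.14), the peroxisomal transporter Abcd2 (-1.78; 0.0029 and 0.1), Id2 (-1.72; 0.0075 and 0.59) and the NMDA receptor subunit Grin2a (-1.62; 0.012 and 0.29). All 4 pairs had the same sign for each of these genes, since the rule asked for it.

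Among transcription factors, the interneuron list (25 tested) had 3 genes that rose and 2 that fell, and the regional patterning list (20 tested) had 2 and 2. Over all genes 1.73% rose and 0.59% fell. Besides Lhx8, the interneuron factors that rose were St18, at 12.18 or more in every striatal array against 9.35, 9.55, 11.83 and 11.18 (2.18 ± 0.48, adjusted p = 0.025), and the retinoic acid receptor Rarb (0.96 ± 0.23, adjusted p = 0.036). Npas3 (7.18, 6.95, 8.89 and 8.29 against 10.93, 11.12, 9.54 and 9.75; -2.51 ± 0.43, adjusted p = 0.0035) and Npas1 fell. For St18 and Npas3 the regions lay further apart in replicates 1 and 2 than in replicates 3 and 4, and neither was called with the block (adjusted p = 0.13 and 0.11). Zic1, a factor of the ventral forebrain, was at 7.78, 7.69, 6.87 and 6.92 against 5.78 to 6.09 (1.45 ± 0.20, adjusted p = 0.00049), and Meis2, a homeobox gene of the striatal anlage, at 9.0, 9.11, 9.74 and 9.67 against 7.09, 7.11, 8.66 and 8.67 (1.5 ± 0.35, adjusted p = 0.038). Nr2f1, the factor COUP-TFI, which like Nr2f2 is set along the axes of the cortex, was at 6.35 to 7.23 against 9.52, 9.14, 8.20 and 8.27 (-2.01 ± 0.28, adjusted p = 0.00051). The calls of St18, Npas1, Rarb and Meis2 were lost when single arrays were left out, with adjusted p values of up to 0.15; that of Rarb was also lost without replicates 3 and 4 (adjusted p = 0.23). With the block 4 genes of the interneuron list were higher (Lhx8, Rarb, Lhx6 and Ppargc1a) and none was lower.

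Neuropeptide genes moved in both directions, with 4 of 25 tested higher and 4 lower, against 1.73% and 0.59% of all genes. Trh and Pdyn rose, and so did Nts, neurotensin, at 8.63, 10.73, 7.84 and 8.61 against 6.16 to 6.52 (2.61 ± 0.48, adjusted p = 0.0063), and Gal, galanin, at 8.50, 9.02, 6.72 and 6.43 against 5.38 to 5.66 (2.14 ± 0.43, adjusted p = 0.012; 0.086 with the block). Vip, Cck, Tac2 and Crh fell. Of 27 tested peptide receptors, 4 rose (Gpr83, Tacr3, Tacr1 and Mc4r) and 3 fell (Npy1r, Grpr and Hcrtr2), against the same shares of all genes. The melanocortin receptor Mc4r was at 9.88, 10.54, 7.27 and 7.49 against 5.58, 5.37, 6.27 and 6.56 (2.85 ± 0.68, adjusted p = 0.039; 0.15 with the block), and the orexin receptor Hcrtr2 at 5.42 to 5.84 against 6.21 to 7.29 (-1.12 ± 0.19, adjusted p = 0.0035). Mc4r kept its call in 2 of the 8 fits that left out 1 array, and Gal missed it without striatal replicate 1 (adjusted p = 0.051). The rise of Tacr3 and Tacr1 and the fall of the ligand gene Tac2 stand in the same comparison; the ligand gene of Tacr1, Tac1, was not called (-0.93 ± 0.79).

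Of 28 tested receptors for monoamines, acetylcholine and adenosine, 4 rose and 4 fell, against 1.73% and 0.59% of all genes, and 13 did not overlap, against 5.98%. The nicotinic subunit genes Chrna4 (7.51, 7.39, 8.95 and 7.98 against 10.93, 10.74, 9.29 and 9.62; -2.19 ± 0.36, adjusted p = 0.0024), Chrna5 (5.64 to 6.06 against 9.74, 10.36, 7.32 and 7.16; -2.81 ± 0.54, adjusted p = 0.009) and Chrna7 (8.72, 8.68, 7.51 and 7.76 against 11.66, 11.54, 9.31 and 9.52; -2.34 ± 0.50, adjusted p = 0.019) fell with Htr3a. All 4 encode ligand-gated channels. The genes that rose were the serotonin receptor Htr5b (7.19 to 7.77 against 6.03 to 6.53; 1.22 ± 0.18, adjusted p = 0.0011), the muscarinic receptor Chrm2 (9.76, 9.78, 7.90 and 8.18 against 7.24, 7.22, 6.25 and 6.32; 2.15 ± 0.45, adjusted p = 0.015), the dopamine receptor Drd5 (8.37, 8.22, 7.35 and 7.02 against 5.79 to 6.72; 1.39 ± 0.29, adjusted p = 0.016) and the nicotinic subunit Chrnb4 (1.22 ± 0.27, adjusted p = 0.027). With the block Chrna4 (adjusted p = 0.11) and Drd5 (adjusted p = 0.061) missed the threshold. Chrna7, Chrm2, Drd5 and Chrnb4 missed it in some of the fits that left out 1 array (up to 0.11). In the catecholamine list of 17 tested genes, Th was the only one called. With the block Nr4a2 was also lower (-0.74; adjusted p = 0.026), and without replicates 3 and 4 Ret was (-1.74; adjusted p = 0.0073).

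Of 32 glutamate receptor subunits and auxiliary proteins 1 rose and 3 fell, where 1.73% of all genes rose and 0.59% fell. Gsg1l rose (1.08 ± 0.25, adjusted p = 0.032), and Cacng5 (-1.17 ± 0.24, adjusted p = 0.014), Shisa9 (-1.67 ± 0.35, adjusted p = 0.018) and Grik2 (11.20, 11.02, 12.35 and 12.35 against 13.35, 13.66, 12.92 and 12.95; -1.49 ± 0.33, adjusted p = 0.023) fell. None of these 4 was called with the block, and all 4 lost their call when any of several single arrays was left out (up to 0.13). The block called Gria1, Grik3 and Grm5 higher and Grik1 and Grin2a lower. Shisa7, an auxiliary protein of GABA-A receptors, rose by 0.64 ± 0.16 (adjusted p = 0.044; 0.16 without replicates 3 and 4, and up to 0.18 with 1 array left out), the only call among 13 genes of that list; the block called 3 higher and 1 lower. Scn4b, a sodium channel subunit abundant in striatal neurons, was at 6.20 to 7.06 against 5.01 to 5.40 (1.34 ± 0.19, adjusted p = 0.00067), the only call among 27 sodium and calcium channel genes, where the block called 3 higher and 2 lower. Of 35 voltage-gated potassium channel genes none was called (3 at an unadjusted p under 0.05, limma), and the block called 2, both higher.

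At the synapse, 2 of 47 vesicle release genes rose and 4 fell, where 1.73% of all genes rose and 0.59% fell. Syt10, a synaptotagmin of peptide release, was at 9.72, 10.21, 8.14 and 8.50 against 6.64, 6.71, 5.71 and 6.23 (2.82 ± 0.37, adjusted p = 0.00032), and Doc2b rose by 0.79 ± 0.18 (adjusted p = 0.034; 0.093 with the block). Cadps2, which primes dense-core vesicles, was at 8.73, 8.96, 7.46 and 7.65 against 12.44, 11.87, 9.65 and 9.27 (-2.61 ± 0.59, adjusted p = 0.03); Cplx3, Sv2c and the syntaxin Stx1a (-0.78 ± 0.18, adjusted p = 0.038) also fell. Doc2b, Cadps2 and Stx1a each lost the call in at least 5 of the fits that left out 1 array (up to 0.15).

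Guidance and adhesion genes moved in both directions. Of 19 Eph receptors and ephrins, 3 rose, where 1.73% of all genes rose: Epha4 (13.87, 13.78, 12.25 and 12.55 against 10.46, 10.58, 11.13 and 10.83; 2.36 ± 0.46, adjusted p = 0.0097), its ligand gene Efna5 (10.53, 10.21, 8.54 and 9.17 against 8.38, 7.87, 7.04 and 7.10; 2.02 ± 0.48, adjusted p = 0.038) and Epha8 (1.27 ± 0.29, adjusted p = 0.028). Efna5 and Epha8 lost the call in some fits that left out 1 array (up to 0.16). Of 40 semaphorins, plexins and related genes, Sema3c and Sema3e (7.08 to 7.33 against 8.0 to 9.0; -1.35 ± 0.22, adjusted p = 0.0021) fell, and the block called 2 higher and 2 lower. Of 33 cadherins and protocadherins 4 were called, where 2.32% of all genes were. Cdh22 (1.05 ± 0.19) and Celsr1 (0.61 ± 0.09) rose. Cdh9 and Pcdh20 (6.37 to 7.0 against 7.62 to 9.12; -1.77 ± 0.26, adjusted p = 0.00085) fell; with the block neither rise was called (adjusted p = 0.062 and 0.061). Among 28 perineuronal net and matrix genes Adamts5 rose and Nptx2, a neuronal pentraxin, fell (-0.59 ± 0.14, adjusted p = 0.038; 0.18 with the block). Of 31 neurotrophic factor and receptor genes only Gfra2 was called. Gdnf, a survival factor of dopamine neurons that lies under the level filter, was at 5.82, 5.86, 4.75 and 4.55 in striatum and at 4.09 to 4.34 in cortex; without the filter it was higher in striatum by 0.99 ± 0.25, which missed the threshold (adjusted p = 0.083), and all values were within background.

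Some markers of projection neurons differed between the regions, where 1.73% of all genes rose and 0.59% fell. Of 25 tested striatal projection neuron genes, 4 rose and none fell (median 0.58): Ppp1r1b, the phosphoprotein DARPP-32, at 8.42, 8.06, 8.77 and 9.20 against 6.34 to 6.73 (2.12 ± 0.25, adjusted p = 0.00013), Pdyn, Foxp2 (0.85 ± 0.15, adjusted p = 0.004) and Rgs9, a regulator of dopamine signalling, at 9.25, 9.53, 10.32 and 10.33 against 7.92 to 8.41 (1.71 ± 0.31, adjusted p = 0.0053; 0.14 without replicates 3 and 4). The dopamine receptor Drd2 was at 9.13 to 10.51 against 9.26, 8.97, 7.89 and 7.19 and was not called (1.59 ± 0.44, adjusted p = 0.097). Of 12 pyramidal neuron markers, Slc30a3, a vesicular zinc transporter (6.02 to 6.56 against 6.75 to 7.59; -0.89 ± 0.18, adjusted p = 0.013), and Nrn1 (5.98 to 6.12 against 7.53, 7.56, 8.82 and 9.10; -2.21 ± 0.52, adjusted p = 0.038) fell, while Slc17a7, the vesicular glutamate transporter that defines these neurons, was at 6.47 to 7.38 against 7.29 to 8.32 with overlap. The call of Nrn1 was lost without replicates 3 and 4 (adjusted p = 0.37) and in 6 of the 8 fits that left out 1 array; that of Slc30a3 was lost without cortical replicate 2 (adjusted p = 0.054). The part of projection neurons in these differences was not tested.

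Glial and vascular lists gave 3 calls in all in the fit of 16 arrays, where 2.32% of all genes were called. None of 14 oligodendrocyte, 11 precursor, 17 microglial, 9 perivascular macrophage and 14 endothelial markers was called (0, 0, 1, 0 and 1 at an unadjusted p under 0.05, limma). With the block the oligodendrocyte gene Aspa fell (-1.14; adjusted p = 0.013), lower in striatum in all 4 pairs, as did the astrocyte gene Slc1a2 (-0.72; 0.031), and the smooth muscle gene Tagln rose (0.71; 0.025). Without replicates 3 and 4 Aspa, the precursor genes C1ql1 and Cspg4 and the microglial list's Sall1 fell. The microglial list had means of 5.49 to 5.95 and the macrophage list of 5.19 to 5.47 in the 8 arrays, within background. The astrocyte list had means of 7.50, 7.54, 8.33 and 8.38 in striatum and 6.95, 6.94, 8.70 and 8.28 in cortex, and 2 of its 12 genes rose: Mlc1 (8.53 to 9.84 against 6.56, 6.48, 8.46 and 7.50; 1.99 ± 0.40, adjusted p = 0.011) and Sox9 (1.31 ± 0.26, adjusted p = 0.0095; 0.061 with the block), while Aqp4, the water channel that defines them, was at 6.48 to 6.92 against 5.97 to 6.66. Acta2, smooth muscle actin, rose by 1.70 ± 0.34 (adjusted p = 0.011), the only call among 9 pericyte and smooth muscle genes. Cd24a, a surface protein of ependymal cells and neuroblasts, was at 12.53, 12.42, 10.37 and 10.16 against 9.58, 9.21, 8.07 and 8.46 (2.54 ± 0.53, adjusted p = 0.015; up to 0.063 with 1 array left out), the only one of 11 stem cell and neuroblast markers called. Of 32 immediate early genes, 25 heat shock and unfolded protein response genes and 19 cholesterol synthesis genes none was called (2, 1 and 1 at an unadjusted p under 0.05, limma); with the block 1 immediate early and 1 cholesterol gene fell.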

How the data were processed

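The deposited series table holds log2 levels, which the submitters' processing notes attribute to RMA and Affymetrix Expression Console. For neither the software version nor the genome build was a value found: both are not given in the sources read. Platform annotation gave 31216 transcript clusters a single gene (1534 several, 33206 none; 827 symbols updated). For 364 genes with several clusters the one with the highest mean stood for the gene, and genes with a mean log2 level under 5.53 were left out. Group means of all 16 arrays were fitted together with limma 3.58.1 (R 4.3.3; lmFit, then eBayes). P-values of the 20495 genes were adjusted by Benjamini-Hochberg and called at 0.05; errors are SE. The fits were tested on simulated data.

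Whether a number marks shared mice is not in the labels. The p-values reflect how far pools of a group spread, taken over all 4 groups, which may be partly technical. Deviations of same-numbered pools correlated at 0.76, 0.58, 0.7 and 0.62 over genes. Striatal replicate 1 with cortical 2 (0.55), striatal 2 with cortical 1 (0.66), striatal 3 with cortical 4 (0.56) and striatal 4 with cortical 3 (0.64) correlated as well. Between replicates 1 or 2 and replicates 3 or 4 the values were -0.73 to -0.55. The correlations follow that split and cannot show that same-numbered pools belong together. The numbers were taken as pairs and as the block by their label alone. The blocked fit used the 8 PV-tdTomato arrays. The fit without replicates 3 and 4 kept the PVCre;tdTomato arrays and took most of its spread from them.

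The 40 lists and the rules for naming genes were chosen with earlier results of these data known. Named were the 15 largest rises and falls past the threshold, without overlap and with a higher group mean of at least 8, the 8 largest each way called only with the block, the 6 largest line differences each way, up to 6 members per list, and Pvalb, Gad1, Gad2, Slc32a1, Th, Npy, Sst, Crabp1, Gpr83, Gdnf, Xist and the Y-linked genes. Other list members named in the text were chosen after their values were seen. Predicted genes were not named. The array's number of replicates limits the precision; alternatives were other filters, scalings, priors, weights and left-out arrays.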

Additional observations from a re-analysis of the deposited data

Results flagged for a closer look

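Of 260 groups of 4 values examined for the genes named here, 13 held an array far from the other 3, where chance flags about 1 in 20 groups. Of these, 7 concerned sex-linked genes in replicate 3, in arrays labelled as male: Xist was at 15.93 in striatal replicate 3 against 5.71 to 6.04 in the other striatal arrays and at 16.01 in cortical replicate 3 against 5.75 to 5.98, Kdm5d at 5.90 and 5.78 against 9.20 to 9.62, Uty at 6.15 in both against 9.39 to 9.80, and Eif2s3y at 5.75 in striatal replicate 3 against 9.54 to 9.98. The others were single genes: Nrcam at 11.43 in cortical replicate 3 against 12.10 to 12.19, Foxp2 at 7.09 in striatal replicate 2 against 6.47 to 6.51, Npas1 at 6.41 in striatal replicate 3 against 5.78 to 5.88, Zic1 at 6.09 in cortical replicate 4 against 5.78 to 5.81, Nptx2 at 6.90 in striatal replicate 3 against 6.43 to 6.47, and Gdnf at 4.09 in cortical replicate 4 against 4.30 to 4.34, within background.

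For 20 named genes the region difference itself differed between the lines (limma interaction, adjusted p of 0.0018 to 0.049). PVCre;tdTomato minus PV-tdTomato of the striatum-minus-cortex difference was positive for Vip (6.80), Necab1 (5.91), Cxcl14 (5.79), Nr2f2 (5.18), Adarb2 (4.96), Sema3c (4.86), Reln (4.20), Rxfp1 (4.09), Tnfaip8l3 (3.92), Ndnf (3.56), Pde11a (3.25), Lamp5 (2.06) and Fgfr1 (1.39). It was negative for Trh (-5.01), Tacr3 (-4.05), Mc3r (-3.33), Gfra2 (-2.99), Cemip2 (-2.33), Crym (-1.93) and Grik3 (-1.63). Of the 20 line differences, 8 kept their call with each of the 8 PV-tdTomato arrays left out in turn.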

How the results depend on the processing

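Of 476 genes called in PV-tdTomato (355 higher, 121 lower), 307 were called with the lower 50% of genes left out (223 higher), 1594 with array weights (1082 higher, 512 lower), 286 with only the 8 PV-tdTomato arrays (45 lower), 69 with a minimum difference of 1 unit (53 higher, 16 lower) and 765 without replicates 3 and 4 (285 lower). Leaving out 1 array gave 340 to 499 called, 268 to 389 higher and 71 to 151 lower. The 40 line differences became 131 with array weights, 128 with the replicate block on 16 arrays, 234 without replicates 3 and 4 and 0 with the minimum difference (limma; 130 at an unadjusted p under 0.05), and 22 to 69 with 1 array left out. With the replicate block, 587 genes were called on the 8 PV-tdTomato arrays (433 higher, 154 lower) and 579 on all 16; calls lost under the block are given beside each named gene that the text leads with. The cause of these shifts was not tested.

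Of 125 named region differences followed under the alternatives, 95 were called, and none of these changed direction: of 1980 values, 1663 kept the call and 317 lost it. With only the 8 PV-tdTomato arrays 48 of the 95 lost their call, and with a minimum difference of 1 unit 61 did. Under every alternative 32 of the 95 kept it, and 42 did so when the minimum difference was set aside. Genes that were not called reversed in 18 values. Without 1 array Pvalb ranged from -0.43 to 1.30, Gad1 from -0.18 to 0.59, Gad2 from -0.53 to 0.12, Slc32a1 from -0.07 to 0.73 and Necab1 from -0.82 to 0.15. Pvalb became -0.03 without replicates 3 and 4 and was below 0 without striatal 1, striatal 2, cortical 3 or cortical 4, as was Gad1. Gad2 became 0.61 and Necab1 0.89 with array weights. Slc32a1 was below 0 without cortical 4, and Sst became -0.97 without replicates 3 and 4. Levels under 6.1, the highest of the background means, may be background, which limits the folds set against them.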

Other observations

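Outside the gene lists and the naming rules, 244 genes were called higher and 83 lower in PV-tdTomato striatum; those named here were chosen after their values were seen. Several more genes of cilia rose: Efcab1 was at 8.34, 8.18, 7.87 and 7.96 in striatum and 5.64 to 6.26 in cortex (2.20 on the log2 scale, limma adjusted p = 3e-06), and Spef2 (2.09), Nme5 (2.24), Cfap299 (1.82) and Cfap161 (1.46) rose as well. Vim, an intermediate filament protein of ependymal and glial cells, rose by 2.02 (adjusted p = 0.0063). Pltp, a phospholipid transfer protein, was at 9.84 to 10.68 against 6.96 to 7.76 (2.85, adjusted p = 1.2e-06), and Lbp, a lipopolysaccharide-binding protein, at 8.67 to 9.16 against 5.42 to 5.90 (3.19, adjusted p = 5.1e-06). All 8 genes also rose in PVCre;tdTomato striatum, Pltp by 3.35 and Lbp by 3.93.

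A second group followed the replicate number as the striatal interneuron genes did. Moxd1 was at 12.31, 11.55, 8.67 and 9.82 in striatum and at 8.19, 7.50, 6.11 and 6.46 in cortex (3.52, adjusted p = 0.01). Gpc3, a surface proteoglycan, was at 10.68, 10.14, 6.88 and 8.37 against 5.59 to 5.75 (3.35, adjusted p = 0.0076), and Lgr5, an R-spondin receptor, at 9.19, 9.51, 7.61 and 7.56 against 6.00 to 6.05 (2.45, adjusted p = 0.0055). These 3 also rose in PVCre;tdTomato striatum, by 3.98, 2.55 and 2.16. Wfs1, a protein of the endoplasmic reticulum, was at 10.21, 10.22, 10.74 and 11.09 against 8.19 to 9.18 (1.90, adjusted p = 0.00011). It differed by 0.31 in PVCre;tdTomato, where it was not called (line difference adjusted p = 0.057).

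Among the genes that fell, Slc17a8, the vesicular glutamate transporter of some Cck interneurons, was at 5.31 to 5.61 against 9.38, 8.67, 7.26 and 7.44 (-2.69, adjusted p = 0.00032), and Pnoc, the nociceptin precursor, at 5.57 to 6.29 against 9.66, 8.62, 7.31 and 7.29 (-2.26, adjusted p = 0.0052). Car4, a carbonic anhydrase, was at 6.50 to 7.10 against 9.79, 9.18, 9.47 and 9.09 (-2.61, adjusted p = 0.0011; 0.051 without replicates 3 and 4), with cortical levels alike in all 4 pools. Bmp3 fell by 2.21 (adjusted p = 7.6e-05). In PVCre;tdTomato these 4 genes differed by -0.01, -0.01, 0.93 and -0.10 and none was called; the line difference was called for Slc17a8 (adjusted p = 0.049), Car4 (0.016) and Bmp3 (0.022) and not for Pnoc (0.21).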
